A study of Mus musculus with 18 samples.

Results

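Heat shock proteins and their DnaJ partners are the chaperones that help other proteins fold, keep them from clumping and hand damaged ones on for disposal. Their transcripts were followed here in the nuclei and the cytoplasm of mouse muscle fibers. The members were the genes whose array name begins with Hsp or Dnaj. Hspg2, Hspbap1 and probes described as pseudogenes were left out. The rule gave 72 genes with 108 probes, of 35527 gene names and 55681 probes on the array. They fell into 8 small heat shock proteins, 13 members of the Hsp70 and Hsp110 families, 3 Hsp90 genes, the 2 genes of the mitochondrial chaperonin, the Hsp70 partner Hspbp1, and 45 DnaJ genes, of which 4 were of class A, 13 of class B and 28 of class C.

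Intact single myofibers were freed with collagenase from 3 muscles of female CD1 mice aged 3 months. These were the extensor digitorum longus (EDL) and the tibialis anterior (TA), both fast, and the soleus, which is slow. No animal was treated, and no gene was altered in any group. Pools of 5 to 10 fibers were lysed and spun, which parts a nuclear pellet from a cytoplasmic supernatant, and RNA of a fraction was hybridized to its own single-colour array. This made 18 arrays in 6 groups of 3 (EDL, soleus and TA, each as nuclei and as cytoplasm). A pool held fibers of 1 mouse or 2 mice, as the labels give them. Same-numbered EDL and soleus samples came from the same mice in both fractions, whereas the TA fractions of one number did not come from one pool. TA nuclei 1 and 2 were of 1 mouse each, which also gave fibers to TA cytoplasm 1 and 2. The other mouse of TA cytoplasm 1 and 2 was the same for both and is also in EDL and soleus 2. The mouse of TA nuclei 3 is also in EDL and soleus 1, and that of TA cytoplasm 3 in no other sample.

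Hsp70 holds and releases unfolded protein in a cycle driven by ATP. DnaJ proteins deliver the substrate and start the cycle, and Hsp110 proteins and Bag proteins exchange the nucleotide. Hsp90 takes over clients that need a late folding step, among them myosin, and small heat shock proteins bind unfolding protein without ATP. In muscle, small heat shock proteins, Dnajb6 and Bag3 are known for their part in keeping the sarcomere's Z-disc in order.

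Levels are given on the log2 scale after quantile normalization, for the brightest probe of each gene, and differences are log2 differences, so that 1 is a doubling. Levels of different probes cannot be set against each other. In a fiber pool, fewer nuclei of a type and less RNA per nucleus cannot be told apart. A gene was called where limma's test gave an adjusted p under 0.05 over all probes tested. Of the 72 genes, 58 were well above background on all 18 arrays and 1, Dnajb13, on none. Over the 3 muscles 68 were tested, while Dnajb13, Dnajb3, Dnajc5g and Hspa12a had too few values.

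Some facts on the arrays bear on every result. Slide 1 carried the cytoplasm arrays of EDL and soleus and TA cytoplasm 1, slide 2 their nuclear arrays, slide 3 TA cytoplasm 3 alone, and slide 4 the TA nuclei with TA cytoplasm 2. In EDL and in soleus the effects of fraction and of slide cannot be told apart, whereas soleus and EDL can be compared within slides. The 3 nuclear arrays of a muscle differed from each other by no more than repeated spots on 1 array did (ratio of the SDs 0.59 for soleus, 0.78 for TA and 0.80 for EDL, over 399 repeated probes), against ratios of 1.31 to 2.60 in cytoplasm. The count over all members is therefore also given, in each comparison, with the nuclear arrays of a muscle taken as 1 sample. The labels fitted the myosins, since Myh4, the fastest myosin, stood at 13.40 or more on all EDL and TA arrays and at 11.59 or less on all soleus arrays, and Myh7, the slow myosin, at 14.08 or more in soleus and 11.60 or less elsewhere.

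The first comparison asked in which fraction the chaperone transcripts were relatively more abundant. Of the 68 genes tested over the 3 muscles, 39 were higher in nuclei and 11 lower, where 31.2% of all 40541 probes tested were called higher and 38.6% lower. The median difference of the members was 0.52, against -0.079 for all probes. With the nuclear arrays of each muscle as 1 sample 16 of these calls were left, with slide as a random block 20, and 15 genes were called under both. These were Dnaja4, Dnajb4, Dnajc1, Dnajc3, Dnajc21, Dnajc28, Hsp90aa1, Hsp90b1, Hspa2, Hspa8, Hspa12b, Hspd1, Hspe1 and Hsph1, all higher in nuclei, and Hspa4, lower by its brightest probe. The shares over all probes, here and below, are of the main fit and not of these alternatives. The 15 genes are therefore not set against the rate of the whole array.

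**Figure D1:**
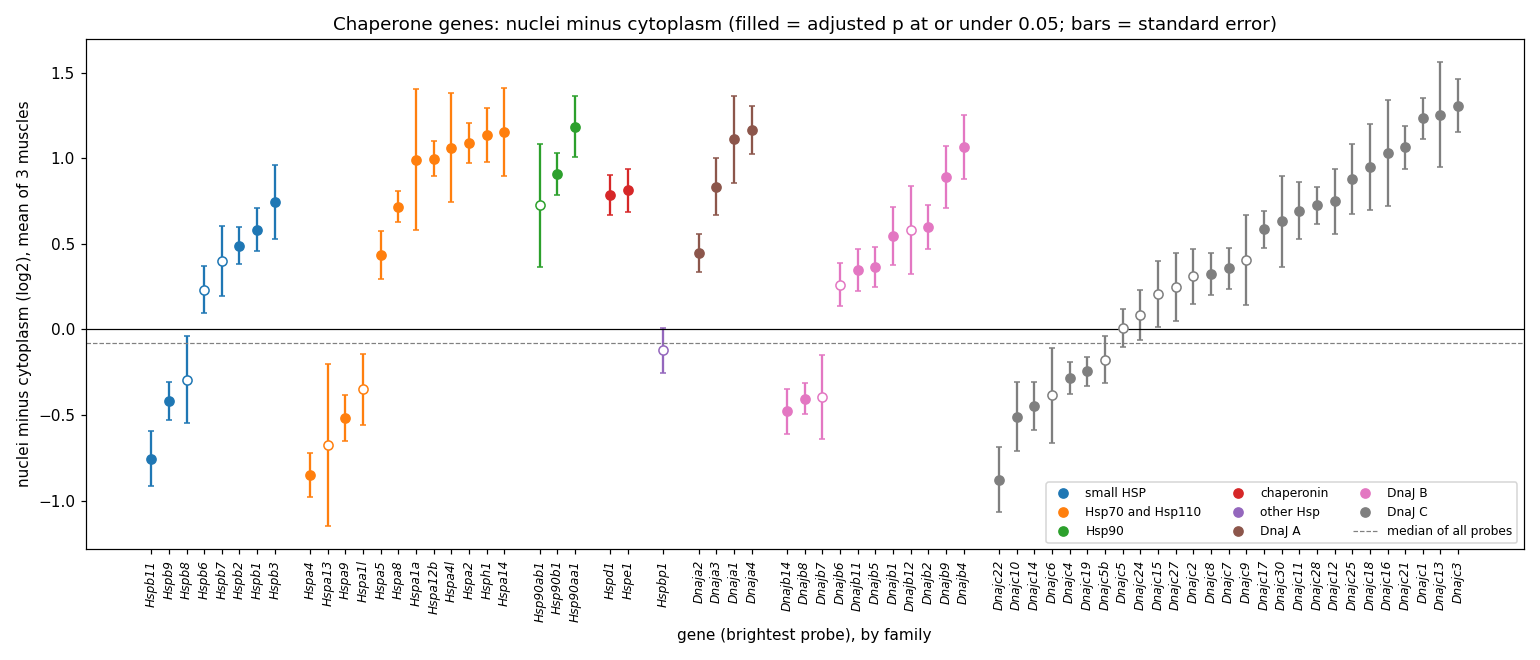
Nuclei minus cytoplasm over the 3 muscles for the 68 tested genes (log2 difference, 1 point a gene), by family, with the standard error as a bar, filled points for genes called and a dashed line at the median of all probes, -0.079. The 4 DnaJ A genes and the 2 chaperonin genes all lie above 0, while the small heat shock proteins, with a median of 0.32, and the DnaJ B and C genes, both with a median of 0.36, spread to either side.

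By family, 4 of 4 DnaJ A genes were higher in nuclei (median 0.97), as were 2 of 3 Hsp90 genes (0.91) and 2 of 2 chaperonin genes (0.80). Of 12 Hsp70 and Hsp110 genes 8 were higher and 2 lower (0.86). Among small heat shock proteins 3 of 8 were higher and 2 lower (median 0.32). DnaJ B counted 6 higher and 2 lower of 11, and DnaJ C 14 higher and 5 lower of 27. Hspbp1, which helps Hsp70 release its nucleotide, differed by -0.12 and was not called. With the nuclear arrays as 1 sample 0 of 8 small heat shock proteins were called, Hsp70 and Hsp110 counted 4 higher and 1 lower, Hsp90 2 and the chaperonin 2 higher, DnaJ A and DnaJ B 1 higher each, and DnaJ C 4 higher and 1 lower. No test set these families against each other.

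Among the ER chaperones, Dnajc3, an ER-resident DnaJ protein also known as an inhibitor of stress kinases such as PERK, had the largest difference of all members called higher. In EDL it measured 5.80, 5.66 and 5.02 in cytoplasm and 7.09, 7.74 and 7.20 in nuclei. In soleus the cytoplasm arrays read 5.97, 5.85 and 5.26 and the nuclear arrays 6.98, 7.03 and 6.96. The TA cytoplasm arrays read 5.36, 4.70 and 4.53, and the TA nuclei averaged 5.63. Every nuclear array lay above every cytoplasm array of its own muscle, by the narrowest margin in TA. The difference over the muscles was 1.31 (SE 0.15, adjusted p 2.5e-06), which is 2.48-fold.

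Several other ER members went the same way by their brightest probe. Dnajc10, also of the ER, did not, at -0.51 by its brightest probe and 1.57 by its second. Dnajc1, whose DnaJ domain faces the ER lumen, was 1.23 higher in nuclei (SE 0.12, adjusted p 3.4e-07), and Hsp90b1, the Hsp90 of the ER, 0.91 higher (SE 0.12, adjusted p 7.9e-06). Dnajb9 was 0.89 higher (SE 0.18), Hspa5, the Hsp70 of the ER known as BiP, 0.44 higher (SE 0.14, adjusted p 0.012), and Dnajb11 0.35 higher (SE 0.12). The second probe of Dnajb9 was not called (0.0025, adjusted p 0.996). The groups of Hsp90b1 did not overlap in any muscle, whereas those of Hspa5 overlapped in EDL and soleus. Of 8 other genes of ER folding, 4 were higher in nuclei and 0 lower, with Pdia6, a disulfide isomerase, at 1.19 and Xbp1, a transcription factor of the unfolded protein response, at 0.61.

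Promoter sequence from RefSeq (assembly GRCm38.p6, 250 bases before to 50 after the start) was at hand for 58 of the 72 genes, in 75 windows. The ER stress element, searched on both strands as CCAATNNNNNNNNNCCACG, stood in the windows of 3 of the 58 genes (5.17%), against 0.137% of 27025 genes of the whole table. All 3 are ER chaperones named above, and their elements are shown in capitals within the flanking bases. Hsp90b1 holds a second one, on the other strand. The same 3 genes were among the 39 of 68 tested members that were higher in nuclei. A link between this element and the fraction was not tested.

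Dnajc3, chr14:118937809-118937863, plus strand: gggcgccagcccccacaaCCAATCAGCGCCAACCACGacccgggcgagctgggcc

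Hsp90b1, chr10:86705620-86705674, minus strand: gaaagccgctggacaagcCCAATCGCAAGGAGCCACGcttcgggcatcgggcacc

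Hspa5, chr2:34772007-34772061, plus strand: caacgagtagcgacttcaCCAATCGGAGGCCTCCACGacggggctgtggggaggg

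Among the cytosolic DnaJ genes, Dnaja4 had one of the steadiest differences. Its arrays read 8.89, 8.84 and 9.50 in EDL cytoplasm against 10.08, 9.91 and 10.01 in nuclei, and 9.84, 10.50 and 9.63 in soleus cytoplasm against 11.09, 11.21 and 11.37. In TA they read 8.72, 8.50 and 9.13 against 10.01, 10.25 and 10.10. No cytoplasm array reached a nuclear array of its muscle, and the difference was 1.16 (SE 0.14, adjusted p 3e-06). Dnaja1, its close relative, was 1.11 higher (SE 0.25, adjusted p 0.0011), though EDL cytoplasm 3, at 10.08, lay among the EDL nuclei at 10.05 to 10.29. Dnajb4 was 1.07 higher in nuclei (SE 0.19, adjusted p 0.00011) and Dnajb1, the main partner of Hsp70 under stress, 0.55 (SE 0.17, adjusted p 0.0089). Dnaja3, of the mitochondrial matrix, was 0.83 higher (SE 0.17). Smaller differences were those of Dnaja2 (0.45, SE 0.11, adjusted p 0.0021), Dnajb2, known from neurons (0.60, SE 0.13), and Dnajb5 (0.36, SE 0.12), all cochaperones of Hsp70 that were called higher. By their second probes Dnajb2 (0.098, adjusted p 0.66) and Dnajb5 (-0.17, adjusted p 0.34) were not called.

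In class C, Dnajc21, needed for making the large ribosomal subunit, was 1.06 higher in nuclei (SE 0.12, adjusted p 2.2e-06). Dnajc13, of endosomes, was 1.25 higher (SE 0.31, adjusted p 0.0025) in a fit where EDL cytoplasm 1 and TA cytoplasm 1 gave no value. Only 1 TA nuclear array had it well above background, and no TA cytoplasm array did, so no fold is given for TA. At the other end Dnajc22 was 0.88 lower in nuclei on the log2 scale, written as -0.88 (SE 0.19, adjusted p 0.00081). In EDL, where its nuclei were not well above background, the cytoplasm held at least 1.98-fold more (adjusted p 0.0054). Dnajc5g was lower in EDL nuclei as well, where the cytoplasm read 5.42, 5.47 and 5.49, at least 2.63-fold more (adjusted p 0.00036). Dnajb3 in soleus was at least 1.75-fold higher in cytoplasm (adjusted p 0.022), a call lost without soleus cytoplasm 1 (adjusted p 0.0964) or soleus nuclei 1 (0.0878) or 2 (0.0608).

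The Hsp70 and Hsp90 genes differed in how evenly they divided. Hspa8, the constitutive Hsp70 of the cytosol, read 12.56, 12.58 and 12.90 in EDL cytoplasm and 13.42, 13.47 and 13.44 in nuclei, 12.63, 12.96 and 12.65 against 13.37, 13.21 and 13.22 in soleus, and 12.35, 12.16 and 12.14 against 13.03, 13.16 and 13.06 in TA. The groups were apart in each muscle, at a difference of 0.72 (SE 0.09, adjusted p 5e-06). Hsph1, an Hsp110, differed by 1.14 (SE 0.16, adjusted p 1.2e-05), with EDL at 9.03, 8.55 and 9.63 against 10.44, 10.43 and 10.40, soleus at 9.04, 8.88 and 8.79 against 10.27, 10.12 and 10.21, and TA at 8.61, 9.68 and 9.51 against 9.92, 10.07 and 10.07. Its nuclear arrays lay above its cytoplasm arrays in all 3 muscles. In TA the lowest array, at 8.61, was TA cytoplasm 1, on slide 1. Within slide 4 the TA nuclei were 0.35 above TA cytoplasm 2. Against TA cytoplasm 2 and 3, scanned on the same day as the TA nuclei, Hsph1 was not called (0.43, limma adjusted p 0.098).

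Hsp90aa1, the inducible Hsp90, was 1.19 higher in nuclei (SE 0.18, adjusted p 2.5e-05). Soleus read 9.48, 10.11 and 9.50 in cytoplasm against 10.54, 10.50 and 10.56, and TA 8.80, 8.75 and 8.85 against 10.62, 10.62 and 10.48. In EDL the cytoplasm gave 9.24, 9.02 and 10.61 against 10.57, 10.56 and 10.58 in nuclei, so that EDL cytoplasm 3 was as high as the nuclei. Hspa12b, a distant Hsp70 relative known from endothelium, was 1.00 higher (SE 0.10, adjusted p 7.1e-07). The mitochondrial chaperonin pair was higher by like amounts, Hspd1 (Hsp60) by 0.78 (SE 0.12, adjusted p 2.4e-05) and its lid Hspe1 (Hsp10) by 0.81 (SE 0.13, adjusted p 3.6e-05), whereas Hspa9, the Hsp70 of the same organelle, was lower, at -0.52 (SE 0.13, adjusted p 0.0029).

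Hspa1a, the strongly stress-inducible Hsp70, was the least steady of the called genes. Its cytoplasm arrays read 9.45, 8.37 and 11.92 in EDL, against 10.80, 10.54 and 10.27 in nuclei. In soleus they read 10.87, 8.38 and 9.10 against 10.68, 9.67 and 10.07, and in TA 7.84, 7.21 and 6.76 against 8.99, 8.96 and 8.86. The fractions overlapped in EDL and soleus and were apart in TA. The difference of 0.99 (SE 0.41, adjusted p 0.042) was no longer called in 13 of the 18 fits that left out 1 array, with adjusted p of 0.0557 to 0.0886, and was kept without EDL cytoplasm 3, EDL nuclei 3, soleus cytoplasm 1, soleus nuclei 2 or TA cytoplasm 1. The probe's annotation also lists a transcript of Hspa1b, its near-identical neighbour, so the value cannot be given to either gene alone. EDL cytoplasm 3 was also the highest EDL cytoplasm array for Dnaja1, Dnajb1, Hspb8 and Hsp90aa1, and for the immediate early genes Atf3 (11.82, against 10.01 and 9.78) and Btg2 (10.03, against 8.38 and 7.76). Atf3 and Btg2 were picked from the 16 immediate early genes listed after their values were seen, and the others are not given for this array. How far the level of Atf3 and Btg2 on this array bears on its chaperone levels was not tested.

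**Figure D2:**
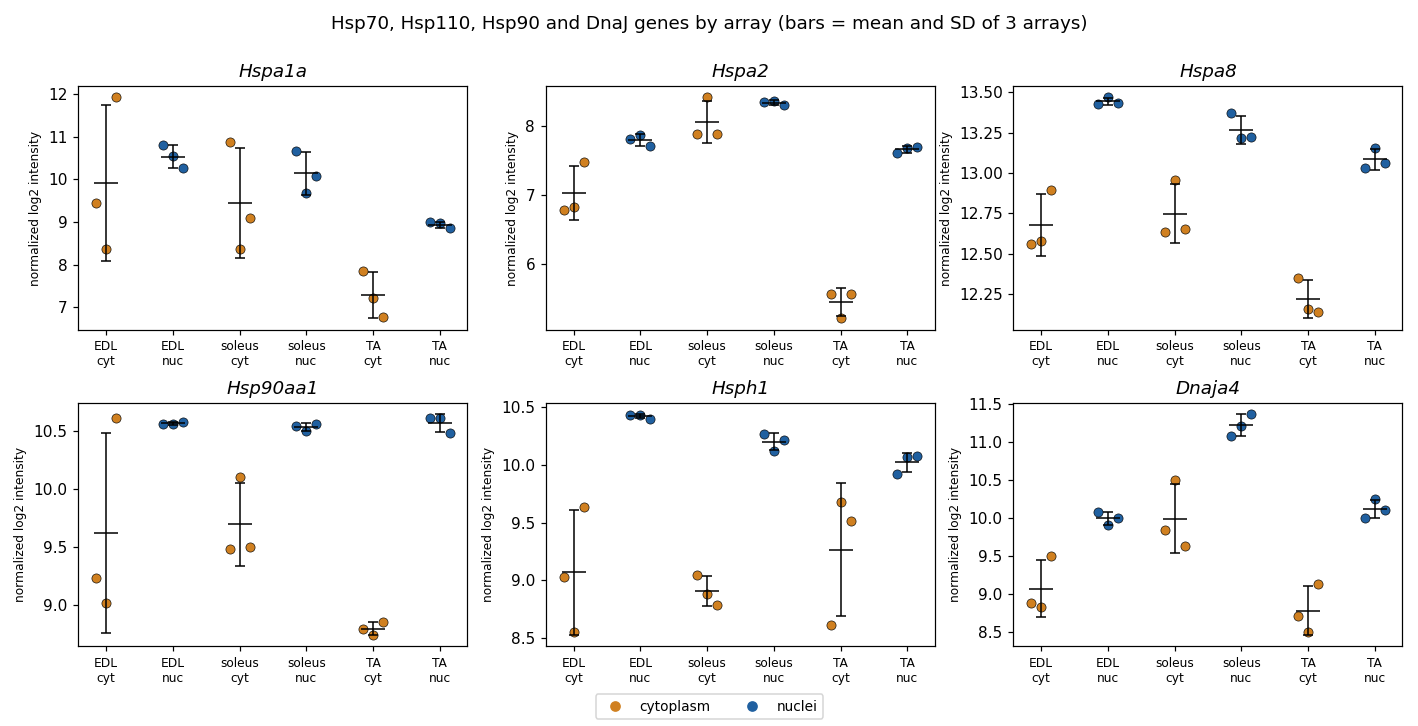
Level on each of the 18 arrays (log2 normalized intensity, vertical axis) of Hspa1a, Hspa2, Hspa8, Hsp90aa1, Hsph1 and Dnaja4, by muscle and fraction, with bars for each group's mean and SD. Hspa8, Hsph1 and Dnaja4 show nuclear arrays above cytoplasm arrays in every muscle, while the Hspa1a cytoplasm arrays of EDL run from 8.37 to 11.92.

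The heat shock element, searched on both strands as GAA, TTC and GAA with 2 bases between each, stood in the promoter windows of 4 of the 58 genes, Dnajb6, Hspd1, Hspe1 and Hsph1 (6.90%), against 0.662% of 27025 genes. The last 3 were among the genes called higher in nuclei in each muscle, and Dnajb6 was not called over the muscles (0.26, adjusted p 0.071), although it was without soleus cytoplasm 2 (0.33, adjusted p 0.0147) or TA cytoplasm 1 (0.34, adjusted p 0.0091) and by its second brightest probe (0.58, adjusted p 0.00048). Hspd1 and Hspe1 are read in opposite directions from one stretch of chromosome 1, and the elements below lie in the bases between them. The windows of both genes hold the same overlapping elements, so this stretch is counted for each gene. A different element of it is shown for each. The capitals mark the element on the strand of each gene. A link between the heat shock element and the fraction was not tested either.

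Hspd1, chr1:55088041-55088089, minus strand: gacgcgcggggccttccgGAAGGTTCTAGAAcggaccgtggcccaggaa

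Hspe1, chr1:55088046-55088094, plus strand: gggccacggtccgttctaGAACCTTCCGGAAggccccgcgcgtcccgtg

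Dnajb6, chr5:29735834-29735882, plus strand: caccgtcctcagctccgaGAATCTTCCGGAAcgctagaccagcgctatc

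Small heat shock proteins were less uniform. Hspb3 was 0.74 higher in nuclei (SE 0.21, adjusted p 0.0062), Hspb1 (Hsp27) 0.58 (SE 0.12, adjusted p 0.00061) and Hspb2, which binds the myotonic dystrophy kinase, 0.49 (SE 0.11). Hspb6 (0.23, adjusted p 0.14), Hspb7 (0.40, adjusted p 0.094) and Hspb8 (-0.29, adjusted p 0.31) were not called. Without TA cytoplasm 1 Hspb6 was called (adjusted p 0.0242), and without TA cytoplasm 3 Hspb7 was (adjusted p 0.00358). Within slide 4 the TA nuclei lay above TA cytoplasm 2 by 2.06 for Hspb7, 0.50 for Hspb6 and 0.024 for Hspb8. Against TA cytoplasm 2 and 3, scanned on the same day as the TA nuclei, Hspb7 differed by 1.04 and was not called (limma, adjusted p 0.18). Hspb9, best known from testis, was lower at -0.42, and Hspb11, which serves in intraflagellar transport rather than in folding, at -0.76 (SE 0.16, adjusted p 0.00065).

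For 5 of the 21 genes with more than 1 probe tested, probes of the same gene were called in opposite directions over the 3 muscles. These were Dnajb14, Dnajc10, Dnajc19, Hspa4 and Hspb11, each lower in nuclei by its brightest probe and higher by another. In soleus against EDL no gene had such opposite calls. In TA against EDL 1 gene of 22 did, Dnajb14, and in TA against soleus 4 of 21, Dnajb14, Dnajc19, Dnajc21 and Hspa4. The first 30 of the 60 bases of the probes of 3 of these genes are shown because the direction depends on which stretch of the transcript was read. Positions are of the mouse build mm9 and span the whole probe, and the exon or UTR each probe lies in is not given here.

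Hspa4, 11:53073594-53073653, minus strand, difference -0.85: tatgcaactgactgtccttaatgaagaact

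Hspa4, 11:53073347-53073406, minus strand, difference 1.19: aactctaggtcacattcttacactaagaaa

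Hspa4, 11:53075085-53075144, minus strand, difference 1.35: caagaagcttcctgagatggacattgattg

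Dnajc10, 2:80194153-80194212, plus strand, difference -0.51: gtggggtggtcagaggatgccagtgaataa

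Dnajc10, 2:80157697-80157756, plus strand, difference 1.57: agagaaataagacaagcctttaagaaatta

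Hspb11, 4:106936194-106936253, plus strand, difference -0.76: tttattttatatgtgggttttgcctacatg

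Hspb11, 4:106952416-106952475, plus strand, difference 1.59: gggactaacagtctcaagtcttccttagta

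Hspa4, an Hsp110 of the cytosol, read by its brightest probe 9.39, 9.81 and 9.48 in EDL cytoplasm against 8.66, 8.75 and 8.58 in nuclei. Soleus gave 9.60, 8.68 and 9.18 against 8.37, 8.47 and 8.52, and TA 9.58, 10.18 and 9.99 against 8.82, 9.04 and 9.05. Within each muscle the cytoplasm arrays were all above the nuclear ones, at a difference of -0.85 (SE 0.13, adjusted p 3.1e-05), and this was the only gene called lower in nuclei in each of the 3 muscles. Its soleus call was lost without soleus cytoplasm 1 (adjusted p 0.109) or 3 (0.0536) or soleus nuclei 1 (0.0674) or 2 (0.0512). Both other probes of the gene were higher in nuclei, and with the mean of the 3 probes the difference was 0.56. For Dnajc10 and Hspb11 the mean of the probes gave 0.75 and 0.42, so for none of the 3 genes did the direction hold over its probes.

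**Figure D3:**
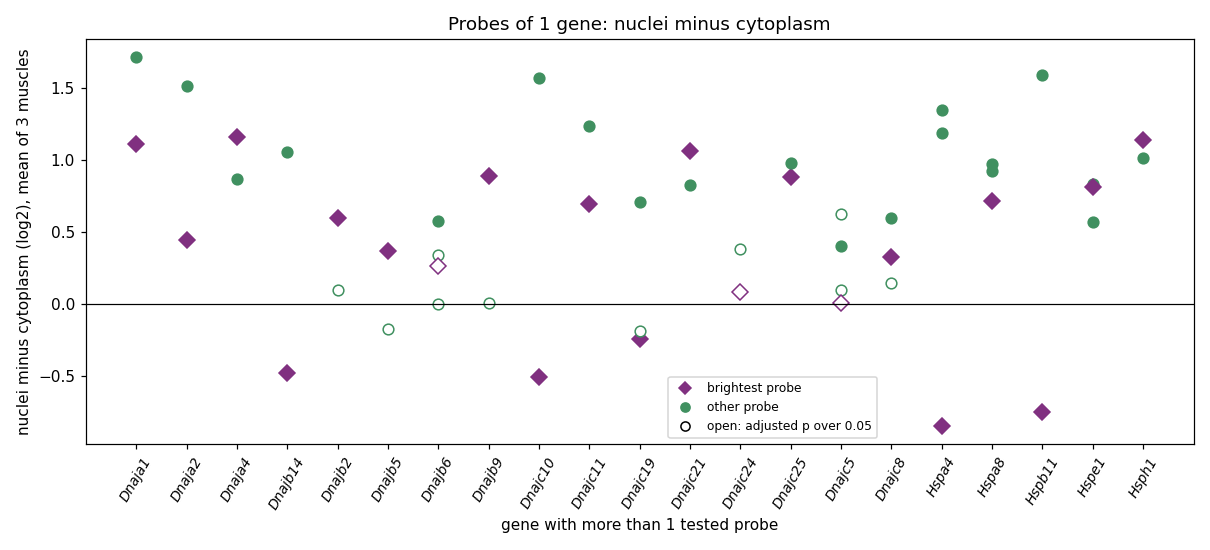
Nuclei minus cytoplasm over the 3 muscles (log2 difference, vertical axis) for each tested probe of the genes with more than 1, with filled points for called probes and a diamond for the brightest probe of each gene. The 5 genes with probes called on both sides of 0 include Hspa4, whose probes run from -0.85 to 1.35.

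Within single muscles fewer genes passed. In EDL 17 of 70 were higher in nuclei and 5 lower, where 20.0% and 26.5% of all probes were called. In soleus 18 of 71 were higher and 5 lower (all probes 18.7% and 21.7%), and in TA 28 of 68 were higher and 8 lower (all probes 19.2% and 33.5%). The genes called higher in each muscle were 11, namely Dnaja4, Dnajc1, Dnajc3, Dnajc21, Hsp90aa1, Hsp90b1, Hspa8, Hspa12b, Hspd1, Hspe1 and Hsph1. Of the 68 genes, 44 had a difference above 0 in all 3 muscles and 15 below 0 in all 3. For neither these counts nor the 11 was the share over all probes counted, so they describe the members only. No gene was called in opposite directions in any pair of muscles. With the nuclear arrays as 1 sample 2 calls were left in EDL (Dnajc3 and Dnajc5g), 0 in soleus and 1 in TA (Hspa2). With slide as a random block they were 6, 0 and 29. The soleus count of 23 fell to 13 without soleus cytoplasm 1, to 11 without soleus cytoplasm 3, to 13, 14 and 15 without soleus nuclei 1, 2 and 3. With the replicate number as a block, which in EDL and soleus stands for the mice, soleus lost Dnajb8 (adjusted p 0.060), Dnajc10 (0.073) and Hsp90aa1 (0.064) and gained Dnajc16 and Dnajc18, and EDL gained Dnajc18 and Hspa14.

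Some of the largest differences within a muscle belonged to genes not yet described. Dnajc11, which helps shape the mitochondrial inner membrane, was 1.45 higher in EDL nuclei (SE 0.29, adjusted p 0.00084), against 0.32 in soleus and 0.31 in TA, which were not called. Its muscles were not called as different (F test, adjusted p 0.197), and were without EDL cytoplasm 1 (0.0484). In soleus, Hspa4l, an Hsp110, was 1.62 higher (SE 0.55, adjusted p 0.029), a call lost without soleus cytoplasm 1 or 3 or any soleus nuclear array (adjusted p 0.0602 to 0.164). It was well above background on all 3 soleus nuclear arrays but on only 1 soleus cytoplasm array (cytoplasm mean 3.32). The size of this difference is therefore uncertain. Hspa14, an Hsp70 that works at the ribosome, was 1.54 higher in soleus (SE 0.45, adjusted p 0.013), a call lost without soleus cytoplasm 1 (0.0516) or 3 (0.0704). Dnajb8, best known from testis, was lower in soleus at -0.44 (adjusted p 0.041), and this call was lost without any of the 6 soleus arrays and without any EDL or TA nuclear array (adjusted p 0.0501 to 0.138). Dnajb7 was called lower in TA nuclei (adjusted p 0.037), but it was well above background on 1 TA cytoplasm array and no TA nuclear array, so no fold is given, and the call was lost without TA cytoplasm 1 or 2 (0.0925 and 0.0829).

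An F test asked if nuclei and cytoplasm differed by unlike amounts from muscle to muscle. It called 1 of the 68 genes, Hspa2, and 1.55% of all probes. Hspa2, an Hsp70 best known from male germ cells, read 6.79, 6.83 and 7.48 in EDL cytoplasm against 7.81, 7.88 and 7.72 in nuclei, and 7.89, 8.42 and 7.89 against 8.36, 8.38 and 8.31 in soleus. In TA the cytoplasm stood at 5.57, 5.21 and 5.57 and the nuclei at 7.61, 7.69 and 7.69. The fractions were wide apart in TA, narrowly apart in EDL and overlapping in soleus. TA had the largest difference, at 2.22 (adjusted p 2.3e-06) or 4.65-fold, followed by EDL at 0.77 (adjusted p 0.0067) and soleus at 0.28 (adjusted p 0.29). The adjusted p of the F test was 0.0119. It was 0.143 with slide as a random block, and with the nuclear arrays as 1 sample the call was lost too. By pairs, TA differed from soleus by 1.94 (adjusted p 0.0054) and from EDL by 1.45 (adjusted p 0.049), and soleus from EDL by -0.49 (adjusted p 0.82). The same F test called 3 of 5 endothelial markers, 2 of 3 erythroid markers and 1 of 16 immediate early genes. The summed intensity of the erythroid markers ran from 13243 to 19873 in EDL cytoplasm and from 10816 to 11217 in nuclei, from 12259 to 27330 and from 6166 to 6696 in soleus, and from 8120 to 10361 and from 11682 to 12487 in TA. The part of these cells in the Hspa2 values was not tested.

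Dnajc17, a DnaJ protein of the nucleus that binds RNA, missed the threshold (adjusted p 0.053), with differences of 1.05 for soleus, 0.85 for EDL and -0.15 for TA. It passed without soleus cytoplasm 1, 2 or 3 or without TA cytoplasm 1 (adjusted p 0.0201 to 0.0418). Malat1, a nuclear RNA, was higher on TA cytoplasm 2 and 3 (8.77 and 8.78) than on the other cytoplasm arrays (5.07 to 6.95). The summed intensity of all 4 nuclear RNAs listed was not, at 784 to 1202 in TA cytoplasm against 1150 to 1833 in EDL and 1266 to 2011 in soleus cytoplasm, and at 5258 or more on every nuclear array. The part of nuclear RNA in the TA differences was not tested.

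Soleus was then set against EDL over both fractions, the comparison that lies within slides. Of 70 genes, 7 were higher in soleus and 0 lower, where 2.27% of all probes were higher and 1.56% lower, and 63 genes were not called. The 7 were Hspb7, Hspa1l, Dnaja4, Hspb6, Dnajb4, Hspa2 and Hspb2. Small heat shock proteins gave 3 of 8, Hsp70 and Hsp110 2 of 12, DnaJ A 1 of 4, DnaJ B 1 of 12, DnaJ C 0 of 28 and Hsp90 0 of 3. With slide as a random block all 7 stayed called, and with the nuclear arrays as 1 sample none did. With the replicate number, which here stands for the mice, as a block, Hspb2 was lost (adjusted p 0.067).

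Hspb7, a small heat shock protein of heart and skeletal muscle, had by far the largest difference. Its EDL arrays read 10.42, 10.19 and 10.53 in cytoplasm and 10.14, 10.19 and 10.43 in nuclei. Its soleus arrays read 12.44, 13.22 and 12.67 and then 13.07, 13.06 and 13.12. Every soleus array was above every EDL array in both fractions, and the difference was 2.61 (SE 0.25, adjusted p 1.3e-05), which is 6.12-fold. It was 2.40 within cytoplasm (adjusted p 0.0024) and 2.83 within nuclei (adjusted p 0.00042). With the nuclear arrays as 1 sample its adjusted p was 0.0996. The probe that reads it lies at 4:140980355-140980414, plus strand, in mm9, and begins as follows.

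Hspb7: ggcctaggtagactgcctcagggaagccag

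**Figure D4:**
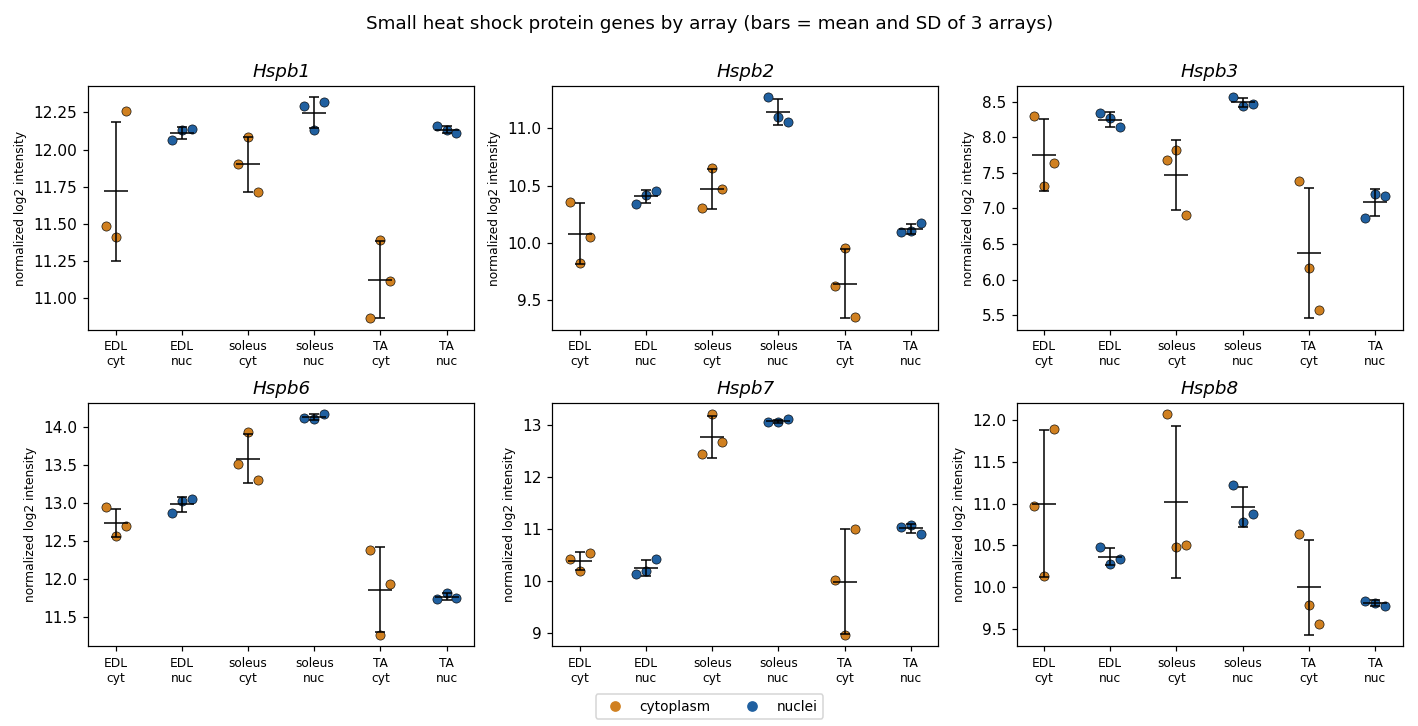
Level on each of the 18 arrays (log2 normalized intensity, vertical axis) of Hspb1, Hspb2, Hspb3, Hspb6, Hspb7 and Hspb8, by muscle and fraction, with bars for each group's mean and SD. Hspb7 lies at 12.44 or more on all soleus arrays and at 11.09 or less on all others, and Hspb6 is lowest in TA.

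Hspb6 (Hsp20) read 12.94, 12.57 and 12.71 in EDL cytoplasm and 12.87, 13.03 and 13.05 in EDL nuclei, against 13.52, 13.94 and 13.30 and then 14.12, 14.10 and 14.17 in soleus. The muscles did not overlap, at a difference of 0.99 (SE 0.17, adjusted p 0.0028). Hspb2 was 0.56 higher in soleus (SE 0.13, adjusted p 0.025). The other small heat shock proteins were not called, with 0.16 for Hspb1, -0.020 for Hspb3 and 0.31 for Hspb8. Cryab, the muscle alpha-crystallin and a relative of these proteins outside the name rule, was 0.87 higher in soleus (SE 0.14, adjusted p 0.0018). Bag3, which works with Hspb8, was 0.82 higher (SE 0.19, adjusted p 0.021).

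Hspa1l, an Hsp70 that lies beside Hspa1a in the genome, read 7.13, 8.27 and 8.52 in EDL cytoplasm and 7.60, 7.71 and 7.65 in nuclei, against 9.01, 9.57 and 8.93 and then 9.45, 9.47 and 9.69 in soleus. Soleus was higher on every array, by 1.54 (SE 0.25, adjusted p 0.002). Dnaja4 was 1.07 higher in soleus (SE 0.17, adjusted p 0.0017), and its second probe was called as well. Hspa2 was 0.79 higher (SE 0.15, adjusted p 0.0054), with 1.03 in cytoplasm (adjusted p 0.021) and 0.54 in nuclei (adjusted p 0.33). Dnajb4 was 0.95 higher (SE 0.23, adjusted p 0.027), a call lost in 9 of the 18 fits without 1 array (adjusted p 0.0565 to 0.0727), namely those without EDL cytoplasm 1 or 2, soleus cytoplasm 2 or any nuclear array of either muscle. Hspa8 (-0.052), Hsp90aa1 (0.021) and Hspa1a (-0.43) were not called.

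TA was compared with both other muscles, although only TA cytoplasm 1 lay on a slide with them. Against EDL 10 of 68 genes were higher in TA and 19 lower (all probes 13.5% and 16.6%), with a median of -0.19. Against soleus 11 were higher and 28 lower (all probes 18.9% and 18.9%), with a median of -0.34. The nuclear arrays as 1 sample left 0 and 6 calls and slide as a random block 1 and 10. The 6 against soleus were Dnajb4, Dnajc14, Hspa1l, Hspa2, Hspb6 and Hspb7. These counts share the TA arrays, so they are not independent of each other.

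The genes lower in TA mostly kept their direction when TA cytoplasm 1 was set against the other cytoplasm arrays of slide 1. This held in 17 of 18 genes with a value against EDL (all but Hspa1l) and in 27 of 28 against soleus (all but Dnajb6). The arrays of slide 1 were also in the fit that chose these genes, so the counts are no separate test. The share of all probes that kept their direction is not given here. Against soleus, 6 of 8 small heat shock proteins were lower and 1, Hspb9, higher. Hspb7 was lower by -2.43 (SE 0.25, adjusted p 7.8e-06), with a mean of 9.99 ± 1.02 (SD, n = 3) in TA cytoplasm and values of 11.04, 11.09 and 10.91 in TA nuclei. Hspb6 differed by -2.04 (SE 0.17, adjusted p 8.4e-07), with TA at 12.38, 11.27 and 11.93 and then 11.74, 11.82 and 11.75. All TA arrays were below all soleus arrays for both genes. Against EDL, Hspb7 differed by 0.18 and was not called, and Hspb6 by -1.05. Hspb3 was lower in TA by -1.27 against EDL and by -1.25 against soleus, but by only -0.37 and -0.089 within slide 1, as TA cytoplasm read 7.38, 6.16 and 5.58. Hspb6 against EDL was -0.36 within slide 1. Hspa1a was lower by -2.12 (adjusted p 0.0055) and by -1.69 (adjusted p 0.016). Hspa2 was lower by -0.86 and by -1.65, and Hspa8 by -0.41 against EDL.

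Of the genes higher in TA, 4 of 10 kept their direction on slide 1 against EDL (median -0.035, against 1.19 over all arrays) and 6 of 11 against soleus (0.32, against 1.08). Dnajc12 was 0.81 higher than in EDL (adjusted p 0.015) and 1.48 higher than in soleus (SE 0.23, adjusted p 0.00022), but -0.028 and 0.72 within slide 1. Hspa4l was called higher than in EDL (adjusted p 0.029), where no array had it well above background. Within nuclei TA held at least 2.07-fold more of it (adjusted p 0.065), and the call over both fractions was lost without EDL cytoplasm 1 or 2, EDL nuclei 3, TA cytoplasm 2 or 3 or TA nuclei 3 (adjusted p 0.0518 to 0.0785). Hsp90ab1 is the constitutive Hsp90. Its EDL arrays read 11.57, 11.22 and 11.48 in cytoplasm and 12.02, 11.92 and 11.90 in nuclei, and its soleus arrays 11.39, 11.67 and 11.50 and then 12.19, 12.09 and 12.19. In TA, cytoplasm 1 read 11.12, while cytoplasm 2 and 3 read 14.71 and 14.59 and the nuclei 14.41, 14.43 and 14.61. The 5 high arrays are those of slides 3 and 4, and TA cytoplasm 1, on slide 1, was as low as the other muscles. The fitted difference was 2.29 against EDL (adjusted p 0.0016) and 2.14 against soleus (SE 0.44, adjusted p 0.0016), but -0.31 and -0.40 within the cytoplasm of slide 1. Over the fractions Hsp90ab1 was not called (0.72, SE 0.36, adjusted p 0.084), and it was called at 0.33 without TA cytoplasm 1 (adjusted p 0.00275), 0.93 without TA cytoplasm 2 (0.0232) and 0.91 without TA cytoplasm 3 (0.0283). Within slide 4 the TA nuclei differed from TA cytoplasm 2 by -0.22 (adjusted p 0.32).

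Hsp90ab1: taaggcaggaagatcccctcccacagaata

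The first 30 bases of its probe, at 17:45704788-45704847 on the minus strand in mm9, are given above because this probe had the largest difference of all members higher in TA. Dnajc16 (3.49 in TA cytoplasm 1, then 6.14 and 6.61), Dnajc18 (6.43, then 8.66 and 8.60), Dnajc15, a mitochondrial import factor (9.75, then 11.41 and 11.48), and Dnajc9, a histone chaperone (7.79, then 9.70 and 10.33), showed the same step between TA cytoplasm 1 and the other two. So did partners outside the name rule, such as the myosin chaperone Unc45a (7.32, then 10.85 and 10.55), the Hsp90 activator Ahsa1 (9.58, then 12.17 and 12.19) and the kinase cochaperone Cdc37 (10.84, then 12.75 and 12.62). For these genes the TA level cannot be told apart from the slide. Dnajc14 was an exception, at 6.71, 6.88 and 7.11 in TA cytoplasm and 6.72, 6.78 and 7.23 in nuclei. It stood above every EDL array, at 4.63 to 5.85, and above every soleus array, at 4.77 to 6.01. Its differences were 1.71 (adjusted p 2.3e-05) and 1.60 (adjusted p 1e-05), and 1.22 and 1.04 within slide 1.

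**Figure D5:**
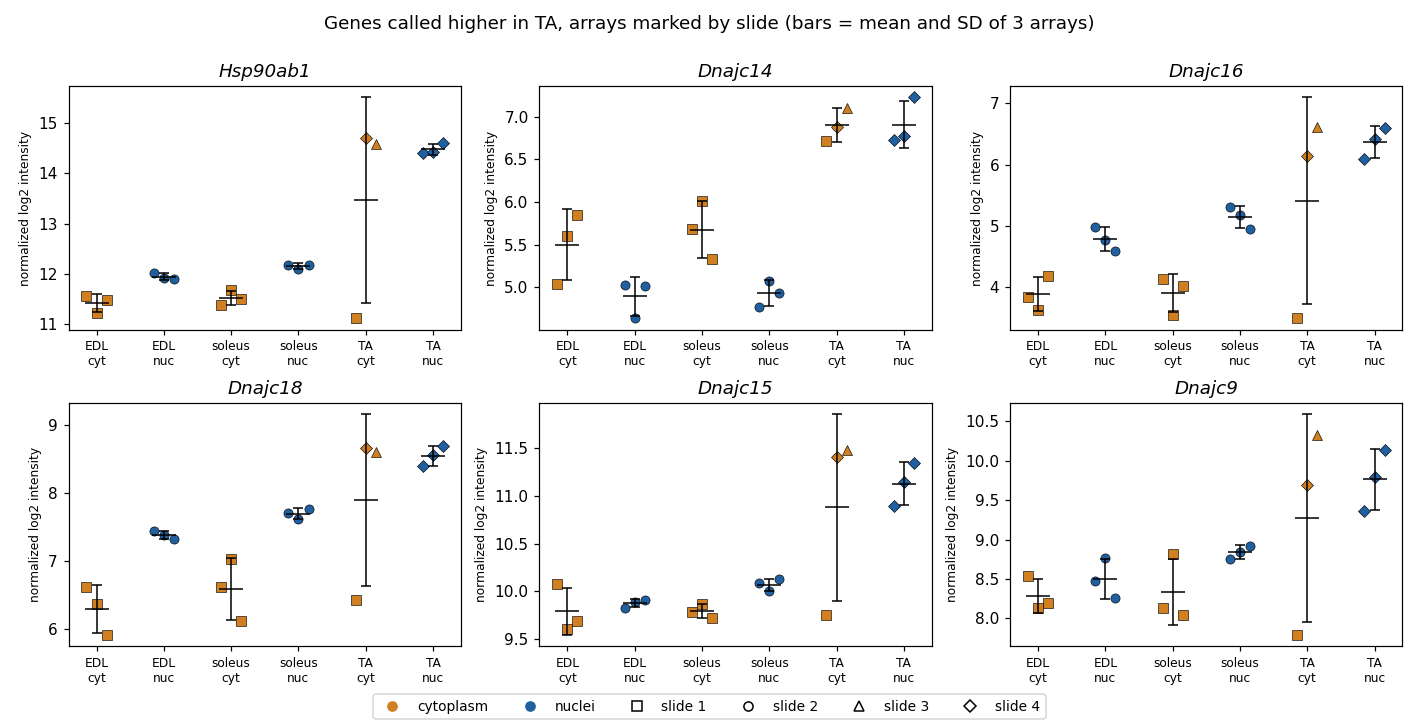
Level on each of the 18 arrays (log2 normalized intensity, vertical axis) of Hsp90ab1, Dnajc14, Dnajc16, Dnajc18, Dnajc15 and Dnajc9, by muscle and fraction, with the marker's shape for the slide and bars for each group's mean and SD. Except for Dnajc14, TA cytoplasm 1, on slide 1, lies apart from TA cytoplasm 2 and 3; for Hsp90ab1 it reads 11.12 against 14.71 and 14.59.

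Genes that act around these chaperones were taken from lists. Of 5 heat shock factors and regulators 2 were higher in nuclei, Hsf1, the master regulator of the heat shock response, by 1.17 (SE 0.15, adjusted p 5e-06) and Hsf2 by 0.47, and 1 was lower, Hsf4 at -0.74. Hsf1 read 6.11, 5.80 and 6.07 in EDL cytoplasm against 7.22, 7.20 and 7.30, 6.57, 6.68 and 5.87 against 7.48, 7.46 and 7.42 in soleus, and 4.78, 5.74 and 5.75 against 6.52, 6.47 and 6.83 in TA. Its nuclear arrays were higher in each muscle. Among 9 nucleotide exchange factors on the array 3 were higher (Bag3 by 0.64, Sil1 and Grpel2) and 2 lower (Bag2 at -0.40 and Bag5 at -0.69).

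Of 17 Hsp70 and Hsp90 partners 6 were higher in nuclei and 1 lower. Ahsa2, a relative of Ahsa1, was 2.58 higher, and Unc45b, the muscle myosin chaperone, 0.98 higher, while Chordc1 was lower at -1.02. The 8 subunits of the cytosolic chaperonin TRiC were split, with 2 higher, Cct5 and Tcp1, and 2 lower, Cct4 and Cct7. In soleus against EDL 0 of the heat shock factors, partners, TRiC subunits and ER folding genes were called. With the nuclear arrays as 1 sample the calls over the muscles were 2 of the 5 heat shock factors and regulators (1 higher and 1 lower), 0 of the 9 exchange factors, 4 of the 17 partners, 1 of the 8 TRiC subunits and 2 of the 8 ER folding genes. In TA, Bag3 was lower by -0.94 against EDL and by -1.76 against soleus.

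Markers of other cells and of tissue handling moved with the fractions too. Of 16 immediate early genes 14 were higher in nuclei and 0 lower, and their summed normalized intensity ran from 16973 to 27974 in EDL cytoplasm and from 41459 to 55790 in nuclei, from 17138 to 22771 and from 37952 to 40983 in soleus, and from 9264 to 14698 and from 24198 to 26827 in TA. All 5 endothelial markers were higher in nuclei, with sums of 2348 to 2528 against 4161 to 4420 in EDL, 2184 to 4145 against 3942 to 4106 in soleus and 1110 to 2064 against 5181 to 5870 in TA. All 5 fibroblast markers and 8 of 10 myofiber genes were higher, and of 5 macrophage markers 0 were higher and 3 lower. In soleus against EDL 0 immediate early genes were called. In TA, 13 of them were lower than in EDL, and against soleus 12 were lower and 1 higher, the comparisons in which Hspa1a was also lower. Fibroblast markers were lower in TA too, 3 of 5 against both EDL and soleus (medians -1.02 and -0.79). Of 4 Schwann cell markers, 4 were lower in TA than in EDL (median -1.30), 1 lower in TA than in soleus, and 2 lower in soleus than in EDL (median -0.68). With the nuclear arrays as 1 sample, 13 immediate early, 4 endothelial, 5 fibroblast and 3 myofiber genes were called higher in nuclei over the muscles, and 4 immediate early genes and 1 fibroblast marker lower in TA than in soleus. The part of these genes and cells in the chaperone values was not tested.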

How the data were processed

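Per the file headers, Agilent Feature Extraction 10.7.3.1 made each deposited scanner file, with 59305 spots besides 3671 control spots, and the authors' intensity used here was the processed (background-subtracted) signal. The authors' own value table, of 3687 features, holds quantile-normalized intensity values and served as an alternative. The study tested with Significance Analysis of Microarrays. Here outlier spots and spots not above background were set aside, log2 signals were quantile-normalized, spots of a probe averaged (55681 probes), and 6 group means fitted with limma 3.58.1 (R 4.3.3; Python 3.11.15 for tables). Probes with values on 2 of 3 arrays in each group compared were tested, with Benjamini-Hochberg adjustment over all of them (threshold 0.05). A p measures the spread between the arrays of a group, whose fiber pools in part share mice. In nuclei that spread, on means of repeated spots, was below the spread between single spots, and in TA cytoplasm it includes differences between slides.

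A gene was given by its brightest probe on average. Named were the 5 largest called in each direction, the 3 of lowest interaction p, and a list of 33 family members, of which 32 are on the array. Members and lists were chosen with earlier results of these data known. Genes named outside this rule were chosen after their values were seen. Between 58.6% and 71.2% of an array's spots were well above background, and 3 arrays a group limit the precision. Where a group was not well above background on any array, folds are bounds, set against the lowest signal well above background. The scripts were tested on simulated data. Same-numbered EDL and soleus samples came from the same mice, and the correlations of same-numbered deviations ran from -0.11 to 0.13. Promoter windows and their assembly are RefSeq's. Alternatives were other scalings, filters, backgrounds and probe rules, blocks for replicate and slide, nuclear arrays as 1 sample, and leaving out each array.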

Additional observations from a re-analysis of the deposited data

Results flagged for a closer look

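Among the members only Hspa2 had an interaction of muscle and fraction that limma called after Benjamini-Hochberg adjustment (adjusted p 0.0119), at 0.77 in EDL, 0.28 in soleus and 2.22 in TA (log2). The nuclei were above the cytoplasm on all arrays of TA and EDL, and the fractions overlapped in soleus. Most TA arrays lay on slides without EDL or soleus, and the adjusted p was 0.143 with slide as a random block. The same F test called 3 of 5 endothelial and 2 of 3 erythroid markers, and their part in the Hspa2 values was not tested.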

How the results depend on the processing

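Counts of members called changed most with each muscle's nuclear arrays as 1 sample, with slide as a random block and without scaling. Over the 3 muscles 50 genes were called by fraction, 16 with the nuclear arrays as 1 sample and 20 with slide as a random block. For EDL these counts were 22, 2 and 6, for soleus 23, 0 and 0, and for TA 36 and 1. The interaction called 1 gene, then 0 and 0, and 2 after normexp background correction or with only values well above background. Soleus against EDL gave 7 and 0 with the nuclear arrays as 1 sample. TA against EDL gave 29, then 0 and 1, and TA against soleus 39, then 6 and 10, and 0 in both with only the cytoplasm of slide 1. Without scaling the counts were 41 in EDL, 58 in soleus and 14 for the interaction, the median of all probes moved to 0.42 over the 3 muscles, 0.35 in EDL, 0.96 in soleus and -0.16 in TA, and the calls over the muscles split into 53 higher and 1 lower.

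Some values changed sign. Without scaling, the differences over the muscles were 0.26 for Hspa9, 0.63 for Hspbp1 and 0.24 for Dnajc10, and those in soleus 0.27 for Dnajc10, 0.12 for Dnajc14, 0.53 for Hspa4 and 0.70 for Dnajb8. With the mean of all probes of a gene, they were 0.56 for Hspa4, 0.42 for Hspb11 and 0.75 for Dnajc10 over the muscles, 0.78 for Hspb11, 0.41 for Hspa4 and 0.041 for Dnajb14 in EDL, 0.17 for Dnajc10 and 0.61 for Hspa4 in soleus, and 0.67 for Hspa4 and 0.11 for Hspb11 in TA. Within slide 1 cytoplasm, TA against EDL gave -0.31 for Hsp90ab1 and -0.40 for Dnajc16, and TA against soleus -0.40, -0.41 and, for Dnajc18, -0.16. The cause of these changes was not tested.

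With the replicate block the counts were 51 over the muscles (49 of them shared), 24 in EDL, 22 in soleus, 34 in TA, 1 for the interaction and 6 for soleus against EDL. The block brought Hsp90ab1 to a call (adjusted p 0.044) and lost Dnajc10 over the muscles (0.060). It could not be fitted for TA against the other muscles. Leaving out 1 array gave 46 to 53 calls over the muscles, 19 to 32 in EDL, 11 to 31 in soleus, 27 to 41 in TA, 1 to 4 for the interaction, 5 to 8 for soleus against EDL, 25 to 35 for TA against EDL and 36 to 43 for TA against soleus. The interaction count was 2 without EDL cytoplasm 1 or any of the 3 soleus cytoplasm arrays, 4 without TA cytoplasm 1 and 3 without TA cytoplasm 3. For single genes, 1592 values kept direction and side of the threshold when 1 array was left out, 91 lost their call and 13 gained one. Under the other settings 762 values were counted as unchanged, 169 lost their call and 15 gained one. A further 22 changed sign with a call in either fit. The deposited table held the brightest probe of only Hspa8 (0.46) and Hspd1 (0.89) among the genes named, so no counts came from it.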
